A study of Mus musculus with 18 samples.

Results

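Calcineurin, the calcium-activated protein phosphatase, and the NFAT transcription factors that it switches on were followed through 10 genes in CD4 T cells of C57BL/6 mice. The genes are a fixed list of symbols, with no rule on a measured value. That list, like the pathway lists and the tests, was chosen with earlier results of these data known. They are the catalytic subunits Ppp3ca, Ppp3cb and Ppp3cc, the regulatory subunit Ppp3r1, the inhibitors Rcan1 and Cabin1, and the NFAT genes Nfatc1, Nfatc2, Nfatc3 and Nfat5. All 10 were among the 55536 genes of the count table, and all 10 passed the filter on low counts that left 15204 genes. RNA was sequenced in 18 libraries that form 6 groups of 3. The 4 peripheral groups held naive cells of spleen and lymph nodes, sorted as CD44 low, CD62L positive, CD25 negative and Va2 positive, from mice of 4 genotypes. These were Cbl-b-/-W131AOTII, W131AOTII, Cbl-b-/- OTII and OTII. The 2 thymic groups, from W131AOTII and from OTII mice, held thymocytes that carried CD4 alone, with the same CD25 and Va2 gates. OTII, which all 6 groups carry, is a T cell receptor transgene that recognises a peptide of ovalbumin. W131A is a substitution in the kinase ZAP-70, and the submitters present W131AOTII as an inherited model of anergy, the state in which a T cell meets antigen and does not respond. Cbl-b-/- mice lack the ubiquitin ligase Cbl-b, which restrains T cell receptor signalling, and the stated aim was to find what Cbl-b controls in anergy. Per the labels, RNA came from 6 Cbl-b-/-W131AOTII, 12 W131AOTII, 3 Cbl-b-/- and 3 OTII mice, with 2 Cbl-b-/-W131AOTII and 4 W131AOTII mice to what the labels call a group. They do not say which mice make up which library. The 3 OTII mice stand beside 6 OTII libraries, so peripheral and thymic OTII libraries may share animals, and so may the W131AOTII ones. Tests between the tissues treat all libraries as independent, and a p-value speaks of the spread among the libraries, part of which may be technical.

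When a T cell receptor is engaged, calcium enters the cell, binds calmodulin and activates calcineurin, a dimer of a catalytic A subunit and the regulatory B subunit encoded by Ppp3r1. Calcineurin strips phosphates from NFATc1, NFATc2 and NFATc3, which then move into the nucleus, while kinases such as GSK3, DYRK and casein kinase 1 put the phosphates back and send them out. With the partner AP-1, NFAT turns on cytokine and activation genes. NFAT without AP-1 is known to turn on genes of anergy and exhaustion. NFAT5 lacks the calcineurin docking region and is known chiefly for the response to osmotic stress. The drugs cyclosporin A and tacrolimus block calcineurin through the binding proteins encoded by Ppia and Fkbp1a.

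NFAT proteins bind the core GGAAA, which reads TTTCC on the other strand, and Rcan1 is itself known as a target of NFAT. It has a start inside the gene whose short transcript is induced by calcineurin and NFAT in a feedback loop, and an upstream start that is not. The 250 bases before both Rcan1 starts and before a start of Nfatc2, the NFAT gene called in the most comparisons here, are shown from RefSeq promoter tables on GRCm38.p6. Each reads 5′ to 3′ on the strand of the gene, the minus strand in all 3, with GGAAA and TTTCC in capitals. The window before the internal Rcan1 start is chr16:92400079-92400328, the window before its upstream start is chr16:92466170-92466419, and the Nfatc2 window is chr2:168601658-168601907. None of these windows overlaps an annotated exon.
Rcan1, internal start: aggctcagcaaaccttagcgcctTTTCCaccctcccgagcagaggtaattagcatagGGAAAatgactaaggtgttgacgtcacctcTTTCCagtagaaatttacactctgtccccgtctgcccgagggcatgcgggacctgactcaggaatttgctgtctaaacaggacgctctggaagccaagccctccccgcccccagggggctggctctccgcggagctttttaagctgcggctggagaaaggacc
Rcan1, upstream start: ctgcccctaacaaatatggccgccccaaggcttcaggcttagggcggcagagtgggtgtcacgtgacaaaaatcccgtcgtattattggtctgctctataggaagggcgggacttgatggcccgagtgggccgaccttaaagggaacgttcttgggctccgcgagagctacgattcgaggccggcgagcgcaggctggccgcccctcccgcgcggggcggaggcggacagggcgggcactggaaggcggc
Nfatc2: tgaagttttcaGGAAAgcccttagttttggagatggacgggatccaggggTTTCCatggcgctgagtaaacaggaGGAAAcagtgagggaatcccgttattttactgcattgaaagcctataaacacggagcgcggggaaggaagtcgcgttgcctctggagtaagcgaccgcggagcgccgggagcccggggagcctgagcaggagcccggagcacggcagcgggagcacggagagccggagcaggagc

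The internal Rcan1 window held 3 copies of the 5 letters on either strand, the upstream Rcan1 window held 0, and the Nfatc2 window held 3. A second annotated start of Nfatc2 had 1 copy. Of all 32817 promoters in the table, 55.6% held at least 1 copy in a window of the same length and 6.38% held 3 or more. The windows of Ppp3cb and Nfat5 held 3 and 2 copies, those of Nfatc3 held 1 and 0, and those of Ppp3r1 and Cabin1 held 0. No member count is given for Nfatc1, which was left out by choice, or for Ppp3ca and Ppp3cc. A match of letters is a description of the window and not a measured binding site, and the gene counts do not separate the 2 starts of Rcan1.

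Library totals ran from 19708218 to 36218772 counts, and the smallest count of any member in any library was 245, for Nfat5. T cell markers (Cd3e, Cd3d, Cd3g, Cd4, Trac and Lck) summed to between 13700 and 25200 CPM (counts scaled to library size) in the 18 libraries. Cblb reads averaged 93.6 ± 15.1 CPM in peripheral Cbl-b-/-W131AOTII cells and 159 ± 15.9 CPM in peripheral W131AOTII cells (SD, n = 3 each). They averaged 69.5 ± 19.8 CPM in peripheral Cbl-b-/- OTII cells and 129 ± 10.7 CPM in peripheral OTII cells, so Cblb transcripts were lower but not absent in both groups labelled Cbl-b-/-. Zap70, which carries the substitution, is no check of it at the level of counts. Replicate 2 of peripheral W131AOTII, replicate 2 of peripheral Cbl-b-/- OTII and replicate 3 of thymic OTII were taken to stand apart from their groups. This was a choice set by hand and not a tested result. The results that rest on these libraries are given below with and without single libraries. Summed B cell markers (8 genes) were 2700 CPM in that peripheral W131AOTII library and 365 and 490 CPM in the other 2 of the group. In bulk RNA, fewer cells that express a gene and less of its RNA per cell cannot be told apart.

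Levels between genes are compared as CPM per kilobase of exon. Ppp3cc was the most abundant catalytic subunit in every group, and Nfatc1 and Nfatc3 were the most abundant NFAT genes. Of the summed length-scaled level of the 3 catalytic genes, Ppp3cc made up 83.8 ± 3.31% in thymic W131AOTII cells and 62.5 ± 3.66% in thymic OTII cells (SD, n = 3 each). In the periphery its share was 79.7 ± 1.21% for Cbl-b-/-W131AOTII, 77.8 ± 1.47% for W131AOTII, 72.4 ± 1.79% for Cbl-b-/- OTII and 75.6 ± 1.52% for OTII cells. Ppp3cc encodes the gamma form of the A subunit, known mostly from testis, and Ppp3ca and Ppp3cb encode the alpha and beta forms, known as the broadly expressed ones. The Ppp3ca share ran from a mean of 9.85% in thymic W131AOTII cells to 19.8% in thymic OTII cells, and that of Ppp3cb from 6.36% to 17.7% in the same groups. Without division by length the Ppp3cc share was 62.1% in thymic W131AOTII and 34.7% in thymic OTII cells, where Ppp3ca had 36.6%, so the place of Ppp3cc as the most abundant subunit in thymic OTII cells rests on the length scaling. Exon length here is the merged length of all annotated exons, and transcripts that use fewer of them would change the shares.

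**Figure D1:**
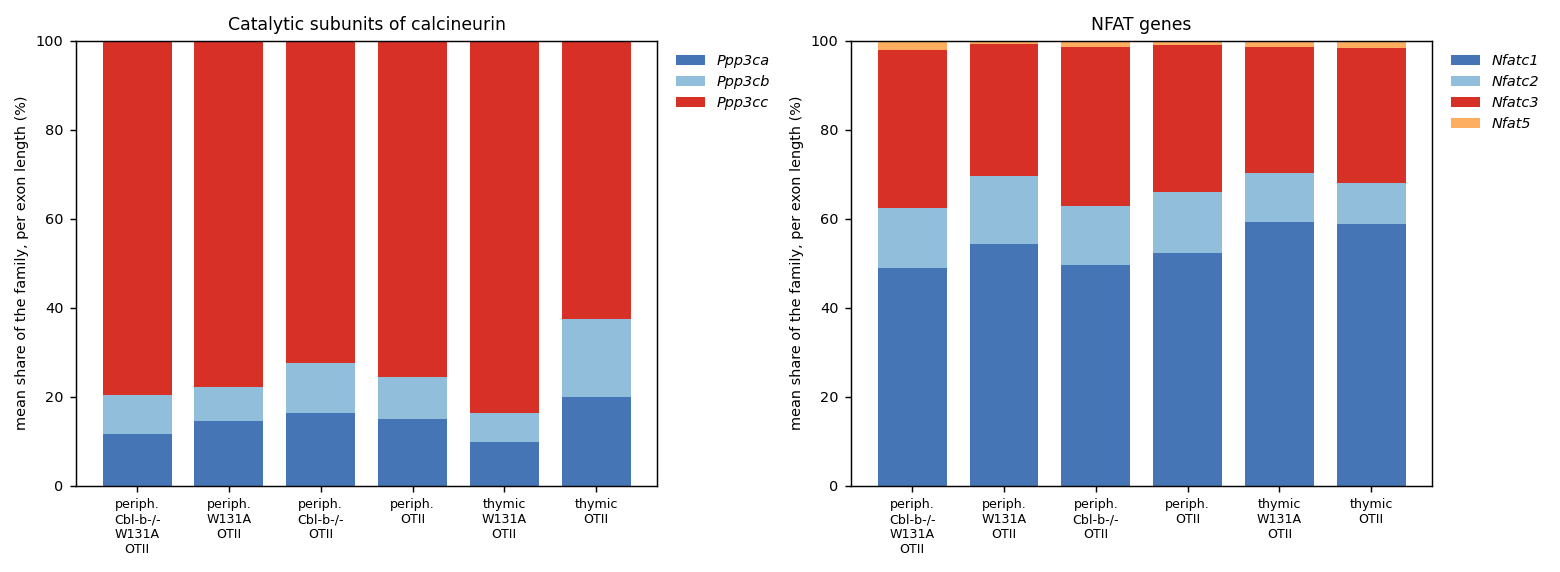
Mean share (n = 3 libraries) of each catalytic subunit gene in the summed level of the 3 catalytic genes (left) and of each NFAT gene in that of the 4 NFAT genes (right), per exon length, in the 6 groups. The Ppp3cc share is largest in thymic W131AOTII cells, at 83.8%, and smallest in thymic OTII cells, at 62.5%.

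Among the NFAT genes, Nfatc1 took mean shares of 49.0% to 59.3% of the length-scaled sum and Nfatc3 took 28.4% to 35.7%. Nfatc2 took 9.25% to 15.2% and Nfat5 0.812% to 2.09%. Without division by length, Nfatc3 had the larger share in the peripheral Cbl-b-/- groups, with 43.2% against 38.1% for Nfatc1 in Cbl-b-/-W131AOTII and 43.7% against 38.6% in Cbl-b-/- OTII cells. On the length-scaled level Nfatc1 averaged 52.3 ± 10.3 CPM per kilobase in thymic W131AOTII cells, where Nfat5 averaged 1.22 ± 0.535. Ppp3r1, the B subunit shared by all catalytic forms, averaged between 32.6 and 39.2 CPM per kilobase in the 6 groups. Wdr92 overlaps Ppp3r1 on the same strand and held counts of up to 80.4% of those of Ppp3r1, so the Ppp3r1 values may hold reads shared between them. For the other members no overlapping gene exceeded 8.05% of the member's counts, a figure reached by an antisense gene of Ppp3cb.

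**Figure D2:**
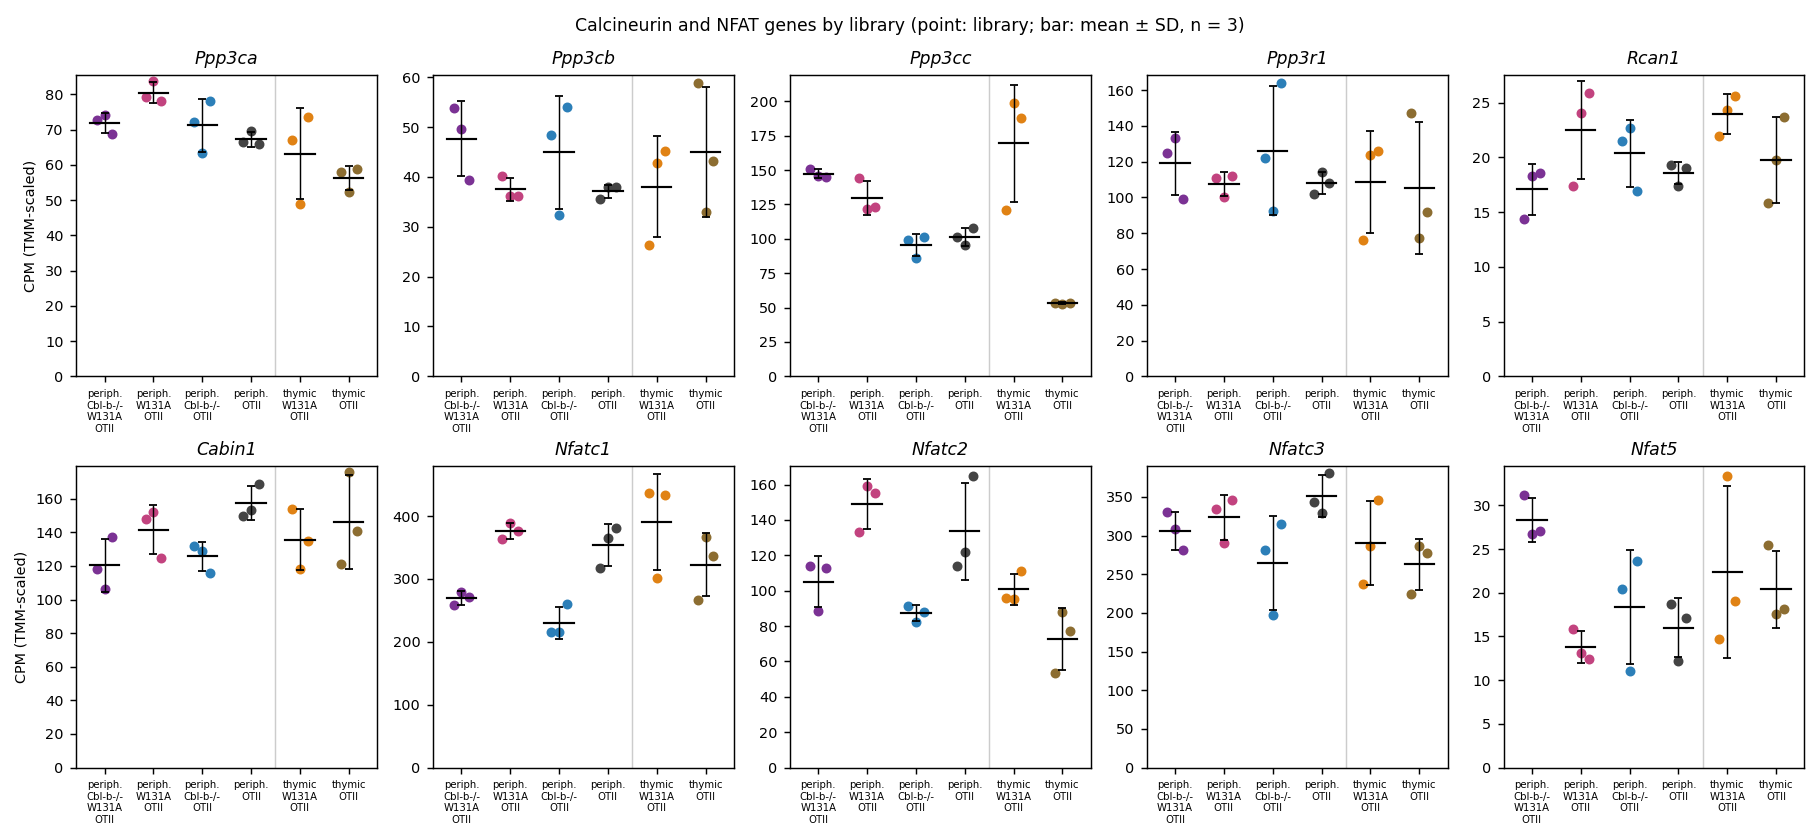
CPM on TMM-scaled library sizes of the 10 genes in each library (points), with the mean and SD of the 3 libraries of a group (bars), for the 4 peripheral and 2 thymic groups. The 3 thymic W131AOTII libraries of Ppp3cc lie at 121 to 199 CPM, above the thymic OTII libraries at 52.8 to 53.6 CPM.

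W131A in the thymus went with more reads of 1 calcineurin gene, Ppp3cc, at a fitted fold of 3.18, and none of the other 9 members passed the test there; 1 of them had an unadjusted p under 0.05, and DESeq2 called none of the 9. Ppp3cc had 121, 199 and 188 CPM in thymic W131AOTII cells, against 53.6, 52.8 and 53.4 CPM in thymic OTII cells. The lowest W131AOTII library lay above every OTII library, and the OTII libraries were nearly equal while the W131AOTII libraries spread widely. The log2 fold change was 1.67 (SE 0.15, adjusted p = 2.3e-06 by edgeR's quasi-likelihood test with Benjamini-Hochberg adjustment), and by p it ranked 4 of 15204 genes. The members had 1 of 10 called, and 2.77% of all genes tested were called in this comparison, 1.73% higher and 1.04% lower. The libraries of the genotypes did not overlap for 17% of all genes. The members had a median log2 fold change of 0.15, beside 0.01 for all genes tested. The call held under every alternative run, with log2 fold changes of 1.53 to 1.88. Markers of mature naive cells (5 genes) summed to 2910 to 3690 CPM in thymic W131AOTII and 4210 to 4410 CPM in thymic OTII libraries. Of these 5, 0 rose and 2 fell, Klf2 by 1.11 (SE 0.16, adjusted p = 0.000352) and S1pr1 by 0.76 (SE 0.12, adjusted p = 0.000795), both by edgeR's test. Erythroid and platelet markers (5 genes) summed to 3.09 to 25 CPM in thymic W131AOTII and 0.395 to 0.982 CPM in thymic OTII libraries. Of the 4 tested, Hba-a1 and Hbb-bs rose, to means of 1.33 and 7.46 CPM in thymic W131AOTII cells, and 0 fell. Regulatory markers summed to 97.4 to 117 CPM in thymic W131AOTII and 42.7 to 68.8 CPM in thymic OTII libraries, with 2 of 4 called, Foxp3 at 1.22 and Il2ra at 1.36. Immature thymocyte markers summed to 314 to 398 CPM in thymic W131AOTII and 198 to 270 CPM in thymic OTII libraries, with 0 of 5 called by edgeR and 1 at an unadjusted p under 0.05. The same sum was 252 to 266 CPM in peripheral OTII libraries, so it does not separate immature thymocytes from peripheral cells. Of the 6 markers of NK and innate-like cells Zbtb16 rose, by 3.85 (SE 0.53, adjusted p = 0.000352, edgeR). The part of all these in the Ppp3cc difference was not tested.

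The NFAT genes had no call between the thymic genotypes. Nfatc2 came closest, with 95.8, 95.3 and 111 CPM in thymic W131AOTII cells and 53.3, 87.9 and 77.1 CPM in thymic OTII cells. Its 3 W131AOTII libraries lay above all 3 OTII libraries, but the log2 fold change of 0.47 (SE 0.17) had an adjusted p of 0.166 by edgeR's quasi-likelihood test, and it was not called under any alternative run. Nfatc1 had 436, 302 and 433 CPM in thymic W131AOTII and 267, 366 and 336 CPM in thymic OTII cells, groups that overlap (adjusted p = 0.356, edgeR). Of 21 tested genes that NFAT is known to induce on activation, 3 rose and 4 fell, with a median log2 fold change of -0.13 beside 0.01 for all genes. Il4, a helper cytokine, rose by 2.71 (SE 0.72, adjusted p = 0.0494) and Il2ra, the CD25 chain of the interleukin-2 receptor and also a regulatory cell marker, by 1.36 (SE 0.16, adjusted p = 4.94e-05), both by edgeR's test. Irf4, a factor induced by receptor signals, fell by 1.24 on the log2 scale (SE 0.21, adjusted p = 0.00214) and Nr4a1, an early reporter of receptor signals, fell by 0.96 (SE 0.15, adjusted p = 0.00116). Without replicate 3 of thymic OTII the counts were 1 and 2. Without replicate 1 of thymic OTII or replicate 1 of thymic W131AOTII they were 2 and 2, and without replicate 2 of thymic OTII 2 and 6. The pathway lists held 15 tested kinases taken to act on NFAT, 19 genes of store-operated calcium entry and 12 genes listed as calcineurin regulators outside the members. Of each list 0 passed edgeR's test in this comparison. At an unadjusted p under 0.05 there were 1 kinase, 6 calcium entry genes and 1 regulator, and DESeq2 called 1, 1 and 0. The calcium entry genes had a median log2 fold change of 0.28, the kinases of -0.02 and the regulators of -0.09.

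In the periphery none of the 10 members was called between W131AOTII and OTII cells. Of all genes 1.93% were, 1.68% higher and 0.25% lower. Ppp3cc was the 1 member with an unadjusted p under 0.05, and DESeq2 called 0 members as well. Ppp3cc had 144, 122 and 123 CPM in peripheral W131AOTII cells, against 101, 95.2 and 108 CPM in peripheral OTII cells. These groups did not overlap, as was true of 19.2% of all genes tested, and the log2 fold change was 0.35 (SE 0.14, 95% interval 0.04 to 0.67, adjusted p = 0.377 by edgeR's quasi-likelihood test). Ppp3ca also had its 3 W131AOTII libraries, 79.4, 83.9 and 78.2 CPM, above the OTII libraries at 66.4, 69.6 and 65.8 CPM, with a log2 fold change of 0.26 (SE 0.13, adjusted p = 0.599, edgeR). The NFAT genes overlapped between the genotypes. Nfatc1 had 363, 389 and 376 CPM in W131AOTII and 317, 365 and 381 CPM in OTII cells, with a 95% interval of the log2 fold change of -0.23 to 0.40. The other NFAT genes had intervals of -0.21 to 0.52 for Nfatc2, -0.47 to 0.23 for Nfatc3 and -0.82 to 0.40 for Nfat5.

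Some of the genes that NFAT is known to induce were called in this comparison. Of the 21 tested activation genes 8 rose and 0 fell, with a median log2 fold change of 1.08 beside 0 for all genes. Without replicate 2 of peripheral OTII 5 rose. Of the 24 tested anergy and exhaustion genes 2 rose, Pdcd1, the inhibitory receptor PD-1, by 1.48 (SE 0.32, adjusted p = 0.0145) and Nr4a1 by 0.65 (SE 0.15, adjusted p = 0.0291), and 1 fell, Ndrg1, by 0.94 (SE 0.14, adjusted p = 0.000594), all by edgeR's test. Their median was 0.37. Lif, an interleukin-6 family cytokine, rose by 4.22 on the log2 scale (SE 0.67, adjusted p = 0.00106, edgeR) to 2.01 ± 0.525 CPM in W131AOTII, against 0.105 ± 0.0617 CPM in OTII cells. Il21, a cytokine of follicular helper cells, rose by 3.87 (SE 0.80, adjusted p = 0.0118, edgeR), at 1.08 ± 0.101 CPM in W131AOTII and 0.0709 ± 0.0954 CPM in OTII cells. Both are at the low end of what these libraries count. At higher levels, Tnfrsf4, the costimulatory receptor OX40, rose by 2.13 (SE 0.24, adjusted p = 2.1e-05, edgeR), with 65.5 ± 8.31 CPM in W131AOTII and 15.0 ± 1.69 CPM in OTII cells. Bhlhe40, a factor that promotes cytokine output, rose by 2.20 (SE 0.26, adjusted p = 4.31e-05, edgeR). Summed regulatory T cell markers (Foxp3, Il2ra, Ikzf2 and Ctla4) ran from 245 to 262 CPM in peripheral W131AOTII and from 63.8 to 67.9 CPM in peripheral OTII libraries. All 4 of those markers rose, and Il2ra belongs to both lists. The cells were sorted as CD25 negative, a gate that removes regulatory cells that carry CD25 on the surface, and the part of any such cells in the counts was not tested.

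The W131A difference of Ppp3cc was itself different in the 2 tissues. The log2 fold change in the periphery less that in the thymus was -1.31 (SE 0.21, adjusted p = 0.00362 by edgeR's quasi-likelihood test on the difference), and 0.381% of all genes had such a call, 0.296% above 0 and 0.0855% below. Ppp3cc was the 1 member of 10 called, and it stayed called under every alternative run, at -1.51 to -1.16. For Nfatc2 the same difference was -0.31 (SE 0.24, adjusted p = 0.711, edgeR). The activation genes had 4 called above 0 and 0 below, with a median of 1.11 beside -0.01 for all genes. They were Tnfrsf4 at 2.46 (SE 0.32), Irf4 at 2.36 (SE 0.31), Nr4a1 at 1.61 (SE 0.22) and Egr2, an early receptor-induced factor, at 1.11 (SE 0.22), with adjusted p-values of 0.000865, 0.000865, 0.000865 and 0.0253 by edgeR's test.

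**Figure D3:**
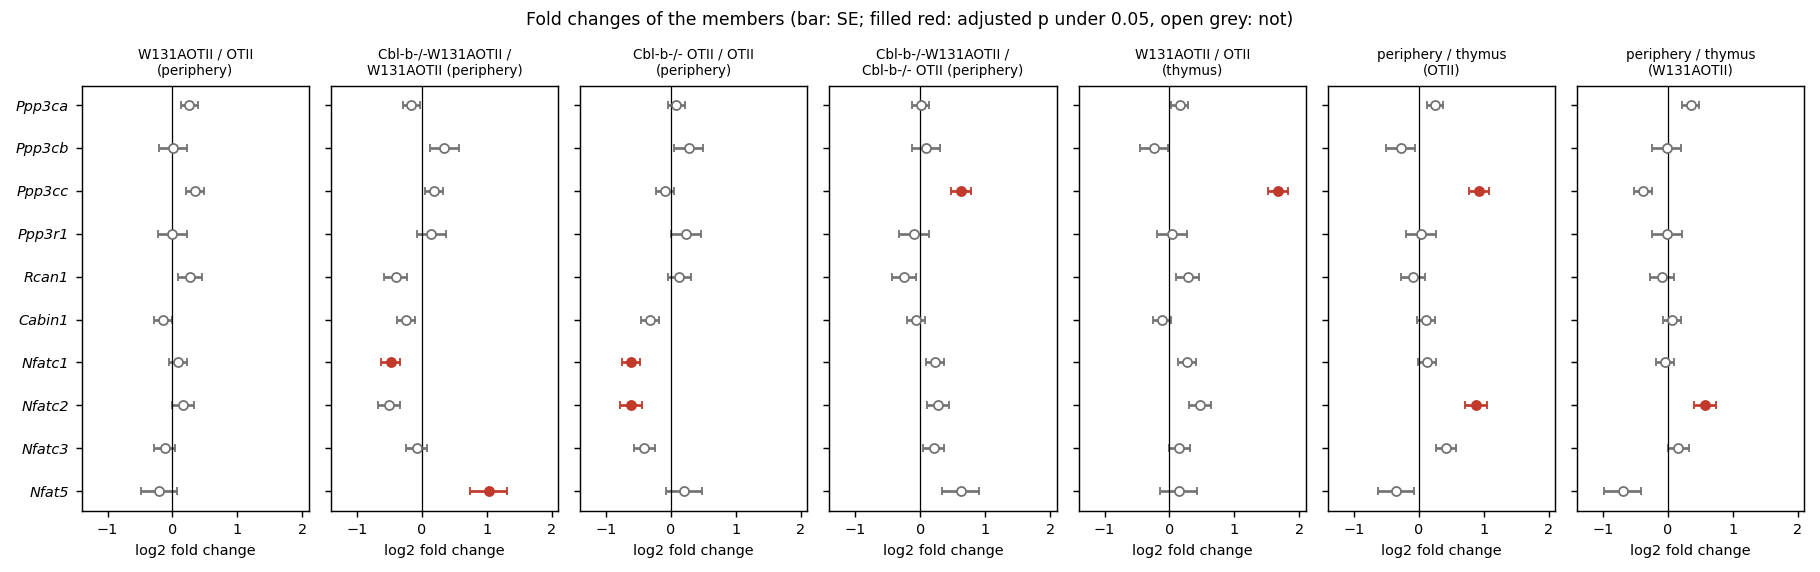
Log2 fold changes (points, with SE as bars) of the 10 genes in the 7 comparisons between groups, first-named group over second. Filled red points passed an adjusted p of 0.05; Ppp3cc stands at 1.67 in the thymus, and Nfatc1 lies below 0 in both comparisons of Cbl-b loss.

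Loss of Cbl-b in peripheral W131AOTII cells went with fewer reads of Nfatc1 and more of Nfat5. These were 2 of the 10 members, 1 higher and 1 lower, and 9.25% of all genes were called, 3.18% higher and 6.08% lower. Nfatc1 had 258, 279 and 272 CPM in Cbl-b-/-W131AOTII, against 363, 389 and 376 CPM in W131AOTII cells. Nfatc2 had 114, 88.5 and 113 CPM in Cbl-b-/-W131AOTII, against 133, 159 and 155 CPM in W131AOTII cells. For both genes every Cbl-b-/-W131AOTII library lay below every W131AOTII library, a separation in either direction that 39.8% of all genes showed. By edgeR's quasi-likelihood test Nfatc1 fell by 0.48 on the log2 scale (SE 0.14, adjusted p = 0.044), and Nfatc2 had a log2 fold change of -0.50 (SE 0.17, adjusted p = 0.0655). DESeq2 called both of these genes and Nfat5.

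Nfat5 had 31.2, 26.7 and 27.1 CPM in Cbl-b-/-W131AOTII, against 15.9, 13.1 and 12.4 CPM in W131AOTII cells. The groups did not overlap, and Nfat5 rose by 1.03 on the log2 scale (SE 0.28, adjusted p = 0.0293, edgeR). Of 7 tested genes of the osmotic response that NFAT5 is known to drive, 0 passed edgeR's test, 3 had an unadjusted p under 0.05, and DESeq2 called 1, which was lower. Nfatc3, with a log2 fold change of -0.08 (95% interval -0.43 to 0.27), overlapped between the groups. Rcan1, the feedback inhibitor of calcineurin, had 14.4, 18.3 and 18.6 CPM in Cbl-b-/-W131AOTII and 17.4, 24.1 and 25.9 CPM in W131AOTII cells. These overlap, and the log2 fold change of -0.40 (SE 0.18) had an adjusted p of 0.163 by edgeR's test.

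Both calls of Cbl-b loss in W131AOTII cells depended on single libraries. Nfatc1 was not called without any 1 of the 6 libraries (adjusted p = 0.0518 to 0.146, edgeR). Nfat5 was called without replicate 1 of W131AOTII, and not without replicate 2 or 3 of W131AOTII (adjusted p = 0.109 and 0.12) or without any of the Cbl-b-/-W131AOTII replicates (0.131, 0.0639 and 0.0623 for replicates 1 to 3). Fold changes in this comparison also moved with the GC content of genes, with a Spearman correlation across genes of -0.41 (a description, since genes are not replicates). Nfatc1 and Nfatc2 have exon GC contents of 54.1% and 56.4%, and Nfat5 has 43.3%. With offsets that take out GC content and length, Nfatc1 had -0.21 (adjusted p = 0.176) and Nfat5 rose by 0.90 (adjusted p = 0.0145), both by edgeR's test. Scaled by library size alone, the median of all genes moved from 0.03 to 0.18, and Nfatc1 had -0.33 (adjusted p = 0.0989). Of all calls, 483 were higher and 924 lower in the fit with TMM scaling, and 960 higher and 531 lower by library size alone. With the replicate number as a block Nfatc1 had an adjusted p of 0.0511. B cell markers summed to 168 to 177 CPM in Cbl-b-/-W131AOTII and to 365, 490 and 2700 CPM in W131AOTII libraries. All 8 fell, and their part in the NFAT values, which B cells also express, was not tested. Of the 6 T cell markers 1 fell, Cd4 by 0.50 (SE 0.12, adjusted p = 0.019, edgeR), and 0 rose. Of the 5 mature naive markers 0 rose and 2 fell, Klf2 by 0.53 (SE 0.16, adjusted p = 0.0417) and Ccr7 by 0.40 (SE 0.12, adjusted p = 0.0497), both by edgeR's test. Whether the Nfatc1 difference goes with that of these genes was not tested.

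In Cbl-b-/-W131AOTII cells the list of kinases taken to act on NFAT had 3 of 15 tested genes lower and 0 higher. Of all genes 6.08% were lower and 3.18% higher. Gsk3a, one of the GSK3 kinases, fell by 0.79 on the log2 scale (SE 0.17, adjusted p = 0.0124, edgeR), with 66.8 ± 5.17 CPM in Cbl-b-/-W131AOTII and 115 ± 7.84 CPM in W131AOTII cells. Csnk1g2, a casein kinase 1 gene, fell by 0.48 (SE 0.14, adjusted p = 0.0373, edgeR). Lrrk2, a kinase that B cells also express, fell by 2.40 (SE 0.60, adjusted p = 0.0227, edgeR), and it had 1.55 ± 0.717 CPM in Cbl-b-/-W131AOTII and 8.21 ± 6.49 CPM in W131AOTII cells. The list had 0 calls without replicate 2 of W131AOTII or replicate 1 of Cbl-b-/-W131AOTII, and 1 without either of the other 2 Cbl-b-/-W131AOTII replicates. Among the 12 calcineurin regulators, Ppia rose by 0.81 (SE 0.16, adjusted p = 0.00839, edgeR) to 63.6 ± 3.98 CPM in Cbl-b-/-W131AOTII, against 36.2 ± 2.32 CPM in W131AOTII cells, and that list kept 1 higher and 0 lower without each library in turn. Of the activation genes 1 rose and 3 fell. The 1 was Ifng, the cytokine interferon gamma, at only 0.332 ± 0.175 CPM in Cbl-b-/-W131AOTII and 0.0213 ± 0.0185 CPM in W131AOTII cells. The 3 were Irf4, at -0.76 (SE 0.22, adjusted p = 0.0349), Egr1, at -0.76 (SE 0.16, adjusted p = 0.0117), and Egr2, at -0.61 (SE 0.15, adjusted p = 0.0232), all by edgeR's test. Without replicate 2 of W131AOTII or replicate 1 of Cbl-b-/-W131AOTII the counts were 0 and 0, without replicate 1 or 3 of W131AOTII 0 and 3, without replicate 2 of Cbl-b-/-W131AOTII 1 and 1, and without its replicate 3 0 and 1.

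Loss of Cbl-b on the OTII background went with lower Nfatc1 and Nfatc2. They were 2 of the 10 members, both lower, and 8.21% of all genes were called, 5.22% higher and 2.99% lower. Nfatc1 had 216, 215 and 260 CPM in peripheral Cbl-b-/- OTII, against 317, 365 and 381 CPM in peripheral OTII cells. Nfatc2 had 91.1, 82.3 and 88.1 CPM in Cbl-b-/- OTII, against 114, 122 and 165 CPM in OTII cells. Neither gene overlapped between the groups, and 30.3% of all genes did not. Nfatc1 fell by 0.62 on the log2 scale (SE 0.14, adjusted p = 0.0159) and Nfatc2 by 0.62 (SE 0.17, adjusted p = 0.0326), both by edgeR's quasi-likelihood test. Nfatc3, the other NFAT factor under calcineurin control, had 281, 197 and 315 CPM in Cbl-b-/- OTII and 344, 329 and 381 CPM in OTII cells (log2 fold change -0.41, SE 0.16, adjusted p = 0.117, edgeR). Cabin1, a nuclear inhibitor of calcineurin, had 132, 129 and 116 CPM in Cbl-b-/- OTII and 150, 153 and 169 CPM in OTII cells (log2 fold change -0.32, SE 0.14, adjusted p = 0.163, edgeR). Nfat5 had 20.4, 11.1 and 23.6 CPM in Cbl-b-/- OTII and 18.7, 12.2 and 17.1 CPM in OTII cells, which overlap.

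Nfatc1 lost its call without replicate 2 or 3 of OTII or replicate 2 of Cbl-b-/- OTII (adjusted p = 0.0596, 0.0926 and 0.0588), and Nfatc2 without replicate 2 or 3 of OTII or replicate 1 or 2 of Cbl-b-/- OTII (0.0611, 0.195, 0.0588 and 0.1). The Spearman correlation of fold change with GC content was -0.27 across genes. Offsets that take out GC content and length gave other calls: Nfatc1 fell by 0.34 (adjusted p = 0.0373), Nfatc3 fell by 0.39 (adjusted p = 0.0204) and Nfatc2 had -0.25 (adjusted p = 0.286), all by edgeR's test. Whatever else the Cbl-b-/- mice or libraries share, such as a colony or a day, cannot be told apart from the loss of Cbl-b.

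Other genes of the pathway in Cbl-b-/- OTII cells gave 0 of 15 kinases higher and 3 lower, and 0 of 19 calcium entry genes higher and 2 lower. Of all genes 5.22% were higher and 2.99% lower. Mapk14, the p38 alpha kinase, fell by 0.55 (SE 0.14, adjusted p = 0.0208), Csnk1d by 0.49 (SE 0.15, adjusted p = 0.0472) and Csnk1g2 by 0.46 (SE 0.14, adjusted p = 0.0496) on the log2 scale by edgeR's test. Plcg1, the phospholipase that releases the calcium trigger, fell by 0.59 (SE 0.18, adjusted p = 0.0478), and Orai2, a calcium channel subunit, by 0.41 (SE 0.12, adjusted p = 0.0434). The calcium entry list kept its 2 calls without replicate 3 of Cbl-b-/- OTII, and had 0 without any other of the 6 libraries. The kinase list had 0 or 1 calls without any 1 of those 5 and 2 without replicate 3 of Cbl-b-/- OTII. Ppia rose by 0.61 (SE 0.16, adjusted p = 0.0275, edgeR) and Rcan3, a relative of Rcan1, fell by 0.45 (SE 0.13, adjusted p = 0.0394, edgeR). These were 1 higher and 1 lower of 12 calcineurin regulators, and both calls were gone without any 1 of the 3 OTII libraries or without replicate 2 of Cbl-b-/- OTII, and the lower one without its replicate 1. Of the 21 activation genes 7 rose and 1 fell, with a median of 0.43 beside 0.04 for all genes. Without replicate 1 or 3 of OTII 4 and 3 rose, and without replicate 2 or 3 of Cbl-b-/- OTII 2 and 3 fell. Tnfrsf4 rose by 1.97 (SE 0.23, adjusted p = 6.31e-05, edgeR), with 58.7 ± 22.5 CPM in Cbl-b-/- OTII and 15.0 ± 1.69 CPM in OTII cells. Of the 4 regulatory markers Ctla4, Ikzf2 and Il2ra rose, with sums of 93 to 128 CPM in Cbl-b-/- OTII and 63.8 to 67.9 CPM in OTII libraries. Gzma, a marker of NK and innate-like cells, rose by 1.87 (SE 0.43, adjusted p = 0.0171, edgeR). Their part in these counts was not tested.

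W131A in cells without Cbl-b went with higher Ppp3cc, the catalytic gene that also rose in the thymus, and no other member was called, although 2 of the 10 had an unadjusted p under 0.05. The members had 1 of 10 called, and 1.89% of all genes were called, 0.802% higher and 1.09% lower. By library size alone 186 genes were higher and 116 lower, against 122 and 165 with TMM scaling. Ppp3cc had 151, 146 and 145 CPM in peripheral Cbl-b-/-W131AOTII, against 99.0, 86.3 and 101 CPM in peripheral Cbl-b-/- OTII cells. The groups did not overlap, and Ppp3cc rose by 0.63 on the log2 scale (SE 0.15, adjusted p = 0.0267 by edgeR's quasi-likelihood test). Nfat5 had 31.2, 26.7 and 27.1 CPM in Cbl-b-/-W131AOTII and 20.4, 11.1 and 23.6 CPM in Cbl-b-/- OTII cells. Its groups did not overlap, as with 21.1% of all genes, at a log2 fold change of 0.62 (SE 0.28, adjusted p = 0.255, edgeR). The Ppp3cc call was absent without replicate 1 or 2 of Cbl-b-/- OTII (adjusted p = 0.0813 and 0.119) and without any 1 of the Cbl-b-/-W131AOTII replicates (0.11, 0.0934 and 0.0893 for replicates 1 to 3), with the fold change between 0.57 and 0.69. Of the activation genes 2 rose and 0 fell, Il2ra by 1.25 (SE 0.16, adjusted p = 0.000135) and Nr4a1 by 0.72 (SE 0.16, adjusted p = 0.0183), both by edgeR's test. Il2ra is also 1 of the 4 regulatory markers, of which it, Foxp3 and Ikzf2 rose, with sums of 250 to 310 CPM in Cbl-b-/-W131AOTII and 93 to 128 CPM in Cbl-b-/- OTII libraries. B cell markers summed to 168 to 177 CPM in Cbl-b-/-W131AOTII and 349 to 582 CPM in Cbl-b-/- OTII libraries. The part of either in these results was not tested. Without replicate 3 of Cbl-b-/- OTII 4 rose, and without its replicate 2 3 did. Without its replicate 1, or replicate 2 or 3 of Cbl-b-/-W131AOTII, 1 rose.

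No member passed the test of whether its W131A difference itself differed with Cbl-b. In the test of the interaction 0 of 10 members were called. Of all genes 0.631% were, 0.0395% above 0 and 0.592% below. Nfat5 was the 1 member with an unadjusted p under 0.05, and DESeq2 called 0 members. Its interaction was 0.84 on the log2 scale (SE 0.39, 95% interval -0.02 to 1.69, adjusted p = 0.399, edgeR). For Ppp3cc it was 0.28 (95% interval -0.17 to 0.72), for Nfatc1 0.14 (-0.30 to 0.59) and for Nfatc2 0.11 (-0.41 to 0.63). Any true difference within these intervals remains possible. The intervals rest on 12 residual degrees of freedom, while the test also pools the spread across genes. An interval can therefore include 0 at an unadjusted p under 0.05, as for Nfat5. Among the 21 activation genes 2 were called, with 0 by library size alone. Bhlhe40, at -1.71 (SE 0.36, adjusted p = 0.0277), and Tnfrsf4, at -1.55 (SE 0.32, adjusted p = 0.0237), were below 0 by edgeR's test. None was called without replicate 2 of OTII, replicate 2 of W131AOTII or replicate 1 or 3 of Cbl-b-/-W131AOTII, and 1 without replicate 1 or 3 of OTII or replicate 2 of Cbl-b-/-W131AOTII. The 4 peripheral comparisons share libraries with each other, so agreement between their signs is not independent.

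Peripheral OTII cells had more reads of Ppp3cc and Nfatc2 than thymic OTII cells. They were 2 of 10 members, both higher, and 18.3% of all genes were called, 7.75% higher and 10.6% lower. Ppp3cc had 101, 95.2 and 108 CPM in peripheral OTII, against 53.6, 52.8 and 53.4 CPM in thymic OTII cells. Every peripheral library lay above every thymic one. Nfatc2 had 114, 122 and 165 CPM in peripheral OTII, against 53.3, 87.9 and 77.1 CPM in thymic OTII cells. By edgeR's quasi-likelihood test Ppp3cc rose by 0.93 (SE 0.15, adjusted p = 0.000148) and Nfatc2 by 0.88 (SE 0.17, adjusted p = 0.00104) on the log2 scale. Both calls held under every alternative run, with log2 fold changes of 0.87 to 0.96 for Ppp3cc and 0.69 to 1.04 for Nfatc2. Nfatc3 had 344, 329 and 381 CPM in peripheral OTII and 225, 286 and 277 CPM in thymic OTII cells, groups that did not overlap (log2 fold change 0.42, SE 0.16, adjusted p = 0.0809, edgeR), a state that 39.5% of all genes showed. With offsets for GC content and length 4 members were called, which added Nfatc3, at 0.32 (adjusted p = 0.0177), and Ppp3cb, at -0.36 (adjusted p = 0.0471).

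In W131AOTII cells Nfatc2 was the 1 member called between periphery and thymus. Of all genes 19.2% were, 8.07% higher and 11.2% lower. Nfatc2 had 133, 159 and 155 CPM in peripheral W131AOTII, against 95.8, 95.3 and 111 CPM in thymic W131AOTII cells. The groups did not overlap, like those of 33.1% of all genes, and Nfatc2 rose by 0.57 (SE 0.17, adjusted p = 0.0224 by edgeR's quasi-likelihood test). Ppp3cc had 144, 122 and 123 CPM in peripheral W131AOTII and 121, 199 and 188 CPM in thymic W131AOTII cells, which overlap through the first thymic replicate (log2 fold change -0.39, SE 0.14, adjusted p = 0.0696, edgeR). Nfat5 had 15.9, 13.1 and 12.4 CPM in peripheral W131AOTII and 14.7, 33.4 and 19.0 CPM in thymic W131AOTII cells (-0.70, SE 0.28, adjusted p = 0.0911, edgeR). The Nfatc2 call was lost without replicate 2 or 3 of peripheral W131AOTII or replicate 1 or 2 of thymic W131AOTII (adjusted p = 0.0626 to 0.0697). Ppp3cc was called without replicate 1 of thymic W131AOTII, at -0.59. With offsets for GC content and length 4 members were called, Nfatc2 together with Ppp3ca at 0.46 (adjusted p = 0.0129), Ppp3cc at -0.38 (adjusted p = 0.0347) and Nfatc3 at 0.28 (adjusted p = 0.0393).

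Of the genes NFAT is known to induce on activation, more were called between periphery and thymus in OTII than in W131AOTII cells, a difference in counts that was not itself tested. Of 21 activation genes 3 rose and 14 fell in OTII cells, with a median log2 fold change of -1.58 beside -0.01 for all genes, and 3 rose and 6 fell in W131AOTII cells, with a median of -0.22 beside -0.02. Irf4 fell by 2.98 on the log2 scale in OTII cells (SE 0.23, adjusted p = 3.79e-08, edgeR), to 8.57 ± 2.56 CPM in the periphery, against 67.4 ± 9.21 CPM in the thymus. In W131AOTII cells Egr2 fell by 1.55 (SE 0.16, adjusted p = 9e-07) and Egr1 by 1.46 (SE 0.17, adjusted p = 4.07e-06), both by edgeR's test. Of the 24 tested anergy and exhaustion genes, a list that holds Nfatc1 and Rcan1 and shares Nr4a1, Nr4a2, Nr4a3, Egr2 and Egr3 with the activation genes, 3 rose and 11 fell in OTII cells and 1 rose and 8 fell in W131AOTII cells. Pdcd1 fell by 4.21 in OTII (SE 0.35, adjusted p = 8.16e-08, edgeR) and by 3.14 in W131AOTII cells (SE 0.33, adjusted p = 1.31e-06, edgeR).

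The calcineurin regulators, kinases and calcium entry genes are read against the shares of all genes called, which were 18.3% in OTII and 19.2% in W131AOTII cells. Of the 12 genes listed as calcineurin regulators, 1 rose and 3 fell in OTII cells, and 1 rose and 1 fell in W131AOTII cells. The 1 that rose was Tsc22d3 in both, and whether it acts on calcineurin in these cells was not tested. In OTII cells the following genes were called. Akap1, which anchors signalling enzymes to mitochondria, fell by 1.65 (SE 0.28, adjusted p = 0.000295), Calm3, a calmodulin gene, by 0.93 (SE 0.26, adjusted p = 0.0157) and Fkbp1a by 0.62 (SE 0.15, adjusted p = 0.00643), and Tsc22d3, the glucocorticoid-induced leucine zipper gene, rose by 0.61 (SE 0.14, adjusted p = 0.00405), all by edgeR's test. Among the kinases Dyrk1b fell by 1.32 (SE 0.22, adjusted p = 0.000271) and Csnk1e by 0.94 (SE 0.16, adjusted p = 0.000286) in OTII cells, and Lrrk2 rose, for 1 higher and 2 lower of 15. With offsets for GC and length 3 kinases rose and 4 fell in OTII cells. In W131AOTII cells the kinases also had 1 higher, Lrrk2, and 2 lower, and Dyrk1b fell by 1.36 (SE 0.22, adjusted p = 0.000202) and Csnk1e by 0.80 (SE 0.16, adjusted p = 0.00114), by edgeR's test. Of the 19 calcium entry genes 5 rose and 1 fell in OTII cells, and 3 rose without replicate 2 or 3 of peripheral OTII or replicate 3 of thymic OTII. Without replicate 1 of thymic OTII 4 rose and 2 fell. In W131AOTII cells 1 of the 19 rose and 1 fell. Itpr2, a calcium release channel, rose in OTII cells by 0.61 (SE 0.14, adjusted p = 0.00367) and Orai2 by 0.53 (SE 0.12, adjusted p = 0.00443), while Kcna3, a potassium channel that sustains calcium entry, fell there by 0.53 (SE 0.16, adjusted p = 0.0268), by edgeR's test. The Kcna3 call was absent without replicate 2 or 3 of peripheral OTII or replicate 2 of thymic OTII. B cell markers summed to 473 to 523 CPM in peripheral OTII and 121 to 250 CPM in thymic OTII libraries, and to 365 to 2700 CPM in peripheral W131AOTII and 60.1 to 162 CPM in thymic W131AOTII libraries. NK and innate-like markers (6 genes) summed to 27.4 to 29.8 CPM in peripheral OTII and 205 to 576 CPM in thymic OTII libraries. In W131AOTII libraries they summed to 32.5 to 144 CPM in the periphery and 208 to 677 CPM in the thymus. Of the 5 immature thymocyte markers 3 were lower in peripheral OTII and 4 in peripheral W131AOTII cells, and 0 higher. Gates on CD44 and CD62L are given for the peripheral cells only. The part of all these in the tissue differences, Lrrk2, Ppp3cc, Nfatc2 and the activation genes included, was not tested.

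Ordered by mean, Ppp3cc stood at 169 ± 42.2 CPM in thymic W131AOTII, 148 ± 3.21 in peripheral Cbl-b-/-W131AOTII, 129 ± 12.6 in peripheral W131AOTII, 101 ± 6.42 in peripheral OTII, 95.3 ± 7.79 in peripheral Cbl-b-/- OTII and 53.3 ± 0.381 CPM in thymic OTII cells (SD, n = 3 each). The 3 groups with W131A were the 3 highest. Between neighbours in that order, thymic W131AOTII overlapped with peripheral Cbl-b-/-W131AOTII, and the peripheral OTII and Cbl-b-/- OTII libraries overlapped as well. Nfatc1 had its 2 lowest means in the Cbl-b-/- groups, 270 ± 10.6 CPM in Cbl-b-/-W131AOTII and 230 ± 25.6 CPM in Cbl-b-/- OTII cells. The other 4 groups had means of 323 to 390 CPM and each overlapped with its neighbour in order, and the lowest thymic OTII library, at 267 CPM, lay within the range of Cbl-b-/-W131AOTII, 258 to 279 CPM. Nfatc2 was highest in the peripheral W131AOTII and OTII groups, at 149 ± 13.7 and 134 ± 27.5 CPM, which overlapped, and lowest in thymic OTII cells, at 72.8 ± 17.7 CPM. Between these stood Cbl-b-/-W131AOTII at 105 ± 14.4, thymic W131AOTII at 101 ± 8.85 and Cbl-b-/- OTII at 87.2 ± 4.49 CPM.

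The other 5 calcineurin genes, and Nfatc3, passed the test in none of the 9 comparisons of the fit. Ppp3ca had group means of 56.4 to 80.5 CPM, Ppp3cb of 37.1 to 47.6 CPM and Ppp3r1 of 105 to 126 CPM. Rcan1 had group means of 17.1 to 23.9 CPM, and Cabin1 of 120 to 157 CPM. The spread within groups was wide for Ppp3r1, with 147, 77.1 and 92.1 CPM in thymic OTII cells, and for Ppp3cb, with 58.9, 33.0 and 43.1 CPM there. The 95% intervals of their log2 fold changes in the thymic W131A comparison were -0.45 to 0.54 for Ppp3r1 and -0.72 to 0.24 for Ppp3cb. For Rcan1 the interval was -0.12 to 0.67 in the thymus and -0.12 to 0.67 in the periphery.

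Ppp3cc and Nfatc2 were the 2 members whose highest and lowest group means differed by more than 1 on the log2 scale, by 1.60 and 1.04. Over the 6 group means, the patterns closest to Ppp3cc among 8224 expressed protein-coding genes were those of Appl2, an endosomal adaptor, Rgmb, a repulsive guidance molecule, and Lyst, a lysosome trafficking regulator, with root mean square differences of 0.25, 0.26 and 0.26 log2 units. The closest to Nfatc2 were Notch2, a Notch receptor, Sema4d, a semaphorin, and Trim62, a ubiquitin ligase, at 0.06, 0.08 and 0.09. These are descriptions of 6 means and carry no test.

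Ppp3cc lies on chromosome 14 of GRCm38, at 70217865 to 70289471 on the minus strand. The genes around it were looked at after its values were seen. Of 19 other tested genes whose start lies within 500 kb of its start, 1 was called between thymic W131AOTII and thymic OTII cells. This was Sorbs3, an adaptor gene 77 kb downstream, which rose by 2.41 (SE 0.57, adjusted p = 0.0264, edgeR) at a mean of 0.863 CPM over all libraries. The next gene upstream, Slc39a14, a zinc transporter, had 0.24 (SE 0.16, adjusted p = 0.485, edgeR), and Egr3, an NFAT-induced factor 212 kb downstream, had -0.88 (SE 0.25, adjusted p = 0.063, edgeR). Gm49417, antisense to Ppp3cc, held at most 1.11% of its counts, with a log2 fold change of 1.41 (SE 0.44, adjusted p = 0.105, edgeR). Between peripheral and thymic OTII cells 5 of the 19 were called. Polr3d rose, and Dok2, Hr, Piwil2 and Egr3 fell, Egr3 by 1.38 (SE 0.25, adjusted p = 0.000571, edgeR).

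**Figure D4:**
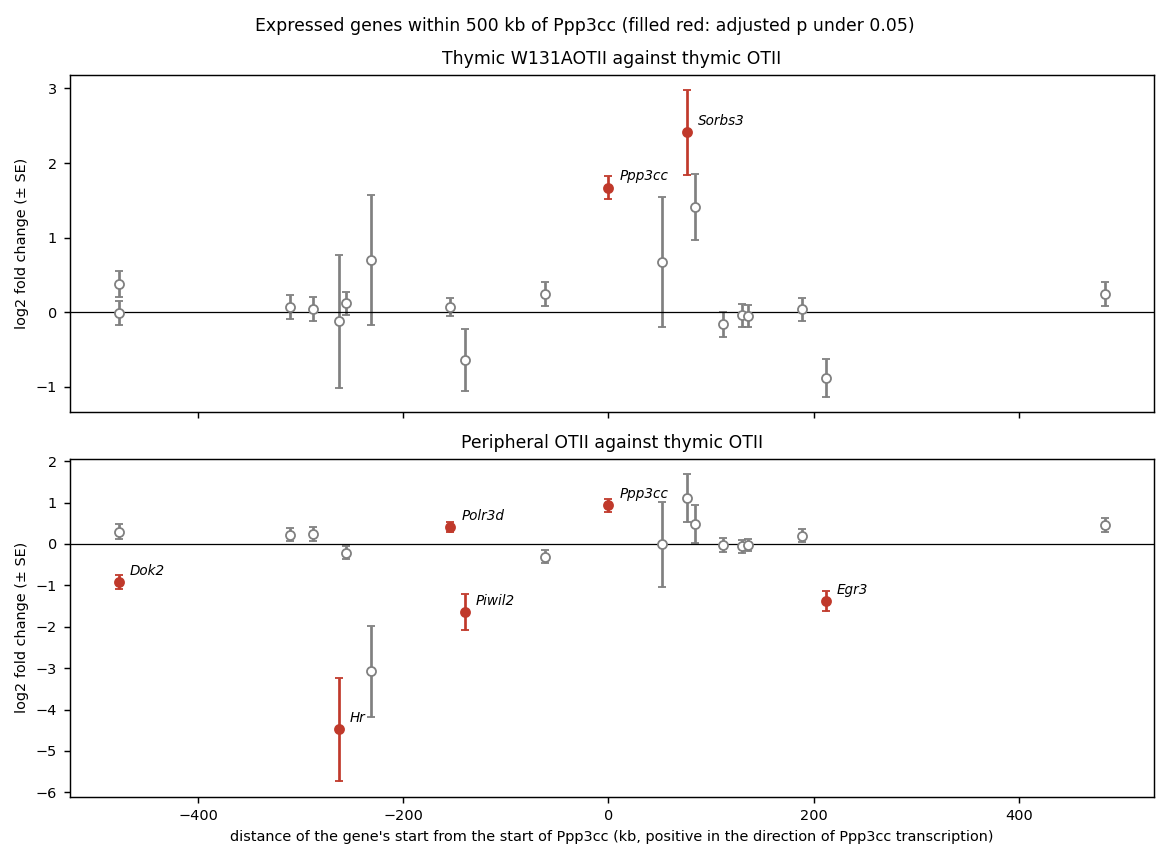
Log2 fold changes (points, with SE as bars) of the tested genes within 500 kb of the start of Ppp3cc, by distance in kb along its direction of transcription, for thymic W131AOTII over thymic OTII (top) and peripheral over thymic OTII cells (bottom). Filled red points passed an adjusted p of 0.05; Ppp3cc stands at 1.67 in the upper panel, where Sorbs3 is the 1 other gene called.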

How the data were processed

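Per the labels' protocols, total RNA of CD4 T cells was prepared with Nugen and Nextera XT kits and sequenced from 1 end over 50 bases. The authors deposited whole-number read counts of each gene, not normalized, for the 18 libraries. The submitters' processing notes name STAR 2.7.2, GRCm38 and DESeq2. The sources used here do not give how reads were assigned to genes, with which annotation or strand setting. All 55536 identifiers matched GENCODE M21, which gave symbols, exon lengths and GC content.

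All 18 libraries, totalling 19708218 to 36218772 counts each, were fitted together by edgeR 4.0.16 (R 4.3.3, limma 3.58.1) with a mean for each group, TMM scaling, filterByExpr (15204 genes kept), a robust quasi-likelihood fit and 12 residual degrees of freedom. P-values were Benjamini-Hochberg adjusted over all genes tested, at a threshold of 0.05. The 9 comparisons were 7 between groups and 2 differences of differences. CPM values are on TMM-scaled library sizes. The procedure was checked on simulated counts. Replicates were compared within each group, and no 2 libraries of a group agreed within sampling noise.

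Groups were taken from the titles, which also number the replicates. The replicate number as a block was run only as an alternative. The other alternatives were DESeq2 size factors, library size alone, no filter, DESeq2 1.42.0, a fit of only the groups compared, offsets for GC content and length (spline with 5 degrees of freedom), and leaving out libraries.

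The 10 genes, the pathway lists and the tests were chosen with earlier results of these data known. All 10 genes are named, and up to 4 called genes of a list in a comparison, those with the largest fold change. The motif search covered the 250 bases before each annotated start in the RefSeq table, on both strands, but among the members Nfatc1 was left out by choice. Promoters of Ppp3ca, Ppp3cc and Nfatc1 and protein sequences were not used here.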

Additional observations from a re-analysis of the deposited data

Results flagged for a closer look

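The differences below were found by a test of the difference itself, edgeR's quasi-likelihood test with Benjamini-Hochberg adjustment over all genes. The effect of W131A on Ppp3cc in the periphery less that in the thymus was -1.31 on the log2 scale. The same difference was 2.46 for Tnfrsf4, 2.36 for Irf4, 1.61 for Nr4a1 and 1.11 for Egr2, which lay on the other side of 0. The effect of W131A in peripheral cells without Cbl-b less that in cells with Cbl-b was -1.71 for Bhlhe40 and -1.55 for Tnfrsf4. Neither of these 2 was called by library size alone, or without replicate 2 of OTII, replicate 2 of W131AOTII or replicate 1 or 3 of Cbl-b-/-W131AOTII.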

How the results depend on the processing

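Of the 90 log2 fold changes of members, 10 were called, and 4 of these were called under every alternative run, namely Ppp3cc and Nfatc2 between peripheral and thymic OTII cells, Ppp3cc between thymic W131AOTII and thymic OTII cells, and the tissue difference of that effect. Of the 66 that were never called and had unadjusted p-values of at least 0.05, 34 changed sign under some alternative, at sizes of up to 0.35. For Cbl-b loss in W131AOTII cells, with 2 members called, 1 was called by library size alone, with the replicate block, with offsets for GC content and length, and with those offsets and the block, in each case Nfat5. The count was 0 without the 3 libraries taken to stand apart, and 0 to 1 with each replicate left out in turn. For Cbl-b loss in OTII cells, with 2 called, it was 0 without those 3 libraries and 0 to 2 with each replicate left out. For W131A without Cbl-b, with 1 called, it was 2 with no filter, 0 without those 3 libraries and 0 to 1 with each replicate left out. For OTII periphery against thymus, with 2 called, it was 4 with the offsets. For W131AOTII periphery against thymus, with 1 called, it was 2 with no filter, 4 with the offsets, 4 with the offsets and the block, 0 without the 3 libraries and 0 to 2 with each replicate left out. Without the 3 libraries together the 6 calls lost had adjusted p-values of 0.073 to 0.138 by edgeR's test, all with the same direction. Of 45 pairs of libraries with the same replicate number, 14 had deviations from the group means that correlated above 0.1 (range -0.45 to 0.31), so the numbers were not taken to pair the samples, and 4 of 18 libraries correlated best with their own number. The block changed no other call of a member. Cabin1 turned to 0.01 for Cbl-b loss in OTII cells with the offsets, and also with the offsets and the block; the cause was not tested. The family shares not divided by exon length stand beside the shares above. Depth limits Lif, Il21 and other list genes near 1 CPM more than any member.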
